A study of Homo sapiens with 12 samples.

Results

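The mRNA levels of 10 genes that fold, hold together and separate chromosomes were followed in JJN3, an established human multiple myeloma cell line. The 10 genes were SMC2, SMC4, NCAPG, NCAPH and NCAPD2 of condensin, SMC1A, SMC3 and RAD21 of cohesin, ESPL1 (separase) and PTTG1 (securin). They were found by their gene symbols in the deposited table, as 10 of 59276 symbols, a rule that sets no threshold on a measured value. However, the members and the wider gene lists were chosen with earlier results of these data known. Shares of all genes given beside their counts are descriptions and not a test of the lists.

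Condensin and cohesin are ring-shaped ATPases that entrap DNA. Condensin compacts the chromosomes for mitosis, whereas cohesin holds sister chromatids together from S phase on and also shapes DNA loops in interphase. At anaphase, the anaphase-promoting complex marks securin and cyclin B for destruction, which frees separase to cut the RAD21 subunit of cohesin so that the sisters can part. Messenger RNAs of condensin I subunits, separase and securin are known to rise towards mitosis in dividing cells, while those of the cohesin core vary less over the cell cycle.

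The cells came in 4 groups of 3 replicates each. JJN3 cells were kept for 3 days with DMSO, the solvent, or with 10 µM MS023, an inhibitor of the type I protein arginine methyltransferases, the family to which PRMT1 belongs. In the other groups the JJN3 cells carried Cas9 and a guide RNA expressed on addition of doxycycline, and both received doxycycline for 3 days. One of these groups held the control guide (isgCtrl) and the other held the single PRMT1 guide iPRMT1_1 (PRMT1-KO). These cells were sorted for an mCherry reporter of the lentiviral Cas9 vector and selected with puromycin for the guide vector, and no step of cloning from single cells was described. The DMSO and MS023 cells were not described as carrying Cas9, so a difference between isgCtrl and DMSO cannot be told apart from Cas9, the vectors, selection, doxycycline or the solvent. The labels do not say whether replicates were separate cultures, and the study's general statement on independent experiments does not name the sequenced samples. If they were not separate, the p-values measure only the spread between these samples.

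PRMT1 mRNA served as the check of the labels. It was 867, 863 and 849 TPM (transcript abundance corrected for length and scaled to the same total in every sample) in the isgCtrl samples and 302, 309 and 301 TPM in the PRMT1-KO samples, or 35.4% of the control, and the groups did not overlap. The DMSO samples held 634, 657 and 670 TPM, so that PRMT1 was itself higher in isgCtrl (log2 fold change 0.40, limma adjusted p = 0.00364). With MS023 the log2 fold change of PRMT1 was 0.04 (limma adjusted p = 0.597). Replicates of a group correlated with Pearson's r of 0.987 to 0.992 over 13256 genes. Between 20988 and 22241 symbols per sample were above 0, and the labels state more than 60000000 read pairs per sample, but TPM do not show the depth. Plasma cell markers were present, with a summed level of 716 to 755 TPM in DMSO, 1152 to 1197 in MS023, 653 to 667 with the control guide and 627 to 631 with the PRMT1 guide, although MZB1 was at 2.01 ± 0.375 TPM in isgCtrl and 1.01 ± 0.622 TPM in PRMT1-KO (SD, n = 3) against 105 ± 2.16 TPM in DMSO. Between isgCtrl and DMSO, 3 of these 8 markers were called lower (MZB1, SLAMF7 and CD38) and 1 higher (IRF4), where 13.9% of all genes were called. With MS023 4 were called higher (11.6% of all genes) and 1, CD38, lower (19.3% of all genes). The markers of B cells, T cells and monocytes summed to at most 2.58 TPM in any sample.

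By GENCODE v44 on GRCh38, all 10 genes are protein-coding. SMC2 spans chr9:104094260-104141419, SMC4 chr3:160399274-160434954, NCAPG chr4:17810979-17844865, NCAPH chr2:96335766-96377091 and NCAPD2 chr12:6493356-6531955, all on the plus strand. SMC1A spans chrX:53374149-53422728 on the minus strand and SMC3 chr10:110567684-110606048 on the plus strand. ESPL1 spans chr12:53268299-53293638 and PTTG1 chr5:160421855-160428739, both on the plus strand. PTTG1 is the shortest of these mRNAs, with 6 exons and 715 bases, and SMC1A is the longest, with 25 exons and 9710 bases. Exons of SMC4 (with IFT80 and TRIM59), NCAPG (with LCORL) and RAD21 (with RAD21-AS1 and UTP23) overlap genes on the opposite strand. Since no source states whether the libraries kept the strand, reads in those overlaps cannot be told apart. In DMSO those partners were at 26.5 TPM or below, lower than the members they overlap. The highest, UTP23, was at 26.5 TPM in DMSO, 19.0 in MS023, 41.1 in isgCtrl and 35.4 in PRMT1-KO. RAD21 was at 79.6, 49.3, 108 and 102 TPM in the same groups, and the part of UTP23 reads in these levels was not tested.

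The promoters bear on these genes because genes that rise towards mitosis often carry 2 short elements, the CCAAT box and, shortly upstream of the start, the cell cycle homology region. RefSeq windows (GRCh38.p14) from 250 bases before to 50 bases after the start were at hand for 9 of the 10 genes (not RAD21), with 13 windows in all. The letters TTTGAA or TTCGAA of the homology region, searched on both strands, were in 6 of 13 windows (46.2%), against 16.4% of 35116 windows of all genes. Not all of these letters lay shortly upstream: those of NCAPD2 and SMC3 began 145 and 151 bases before the start, and those of SMC2 ran across it. CCAAT on either strand was in 5 of 13 (38.5%) against 34.6%, and both together were in 2 of 13 (15.4%) against 6.38%. The counts are of windows, not genes, and windows of the same gene can overlap, as in PTTG1, so that the same letters count more than once. The E2F letters TTTCCCGC, TTTCGCGC, TTTGCCGC or TTTGGCGC were in 1 of 13 (7.69%), a window of SMC1A, against 3.31%. Such matches describe letters and are not shown to be sites in use, and their part in the levels was not tested. The bases before the start are printed for 4 genes that stand for the range of responses, ESPL1 and NCAPG with some of the largest changes, PTTG1 from the securin side and SMC3 with the smallest change. Each runs 5′ to 3′ along the gene's strand, and capitals mark the CCAAT letters and the homology region letters on either strand.
ESPL1 promoter, chr12:53268049-53268298, plus strand: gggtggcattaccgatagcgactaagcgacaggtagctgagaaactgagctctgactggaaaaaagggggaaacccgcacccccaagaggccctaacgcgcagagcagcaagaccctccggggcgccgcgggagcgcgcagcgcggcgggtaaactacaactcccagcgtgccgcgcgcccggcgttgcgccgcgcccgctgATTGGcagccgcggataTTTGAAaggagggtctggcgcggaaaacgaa
NCAPG promoter, chr4:17810729-17810978, plus strand: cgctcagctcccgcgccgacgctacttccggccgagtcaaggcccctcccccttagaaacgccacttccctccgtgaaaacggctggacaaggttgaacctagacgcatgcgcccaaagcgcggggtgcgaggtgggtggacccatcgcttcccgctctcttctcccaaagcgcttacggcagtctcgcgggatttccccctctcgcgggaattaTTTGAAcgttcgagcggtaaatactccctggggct
PTTG1 promoter, chr5:160421605-160421854, plus strand: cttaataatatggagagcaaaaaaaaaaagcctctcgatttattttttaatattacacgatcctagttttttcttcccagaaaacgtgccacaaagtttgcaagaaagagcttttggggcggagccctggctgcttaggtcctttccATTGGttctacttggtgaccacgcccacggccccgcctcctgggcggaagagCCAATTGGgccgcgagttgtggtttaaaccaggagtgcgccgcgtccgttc
SMC3 promoter, chr10:110567445-110567683, plus strand: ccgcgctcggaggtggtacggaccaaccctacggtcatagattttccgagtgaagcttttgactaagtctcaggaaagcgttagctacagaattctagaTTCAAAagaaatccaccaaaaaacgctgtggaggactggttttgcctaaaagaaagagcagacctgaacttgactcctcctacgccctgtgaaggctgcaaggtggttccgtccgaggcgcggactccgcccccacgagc
In ESPL1 the reverse complement of CCAAT begins 48 bases before the start and TTTGAA 31 bases before it. NCAPG has TTTGAA 35 bases before the start, while the window of PTTG1 has CCAAT letters and none of the homology region. In PTTG1 a CCAAT on the plus strand and another on the minus strand overlap, 51 and 48 bases before the start. SMC3 has the homology region letters on the minus strand, 151 bases before its RefSeq start, and its printed run stops where the GENCODE gene begins.

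The first comparison asked what inhibition of the type I enzymes did to these genes. All 10 mRNAs fell with MS023. The MS023 cells kept between 30.6% and 62.1% of the DMSO level, with a median of 39.7%, so that the levels of all 10 members together fell from a sum of 595 to 267 TPM. A gene was called when its log2 fold change exceeded 0.48 in either direction and limma, with Benjamini-Hochberg adjustment, gave p under 0.05. By this rule 10 of 10 were lower, where 30.9% of the 12903 genes tested were called and 19.3% were called lower. In all 10 the DMSO and MS023 samples did not overlap, which was so for 59.5% of all genes (36.3% with MS023 lower). The median log2 fold change was -1.27 for the members and -0.11 over all genes. In bulk RNA, fewer cells in a phase that makes an mRNA and less of that mRNA in each cell cannot be told apart. With MS023 the summed level of 6 G2/M markers (AURKA, AURKB, BUB1, CCNA2, CENPF and PLK1) was 174 to 189 TPM against 449 to 472 in DMSO (38.9% of DMSO), and that of 9 S phase markers (MCM2 to MCM7, PCNA, RRM2 and TYMS) was 1037 to 1103 against 1869 to 1939 TPM (56.5%). All of these markers were called lower, and their part in the falls given here was not tested.

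**Figure D1:**
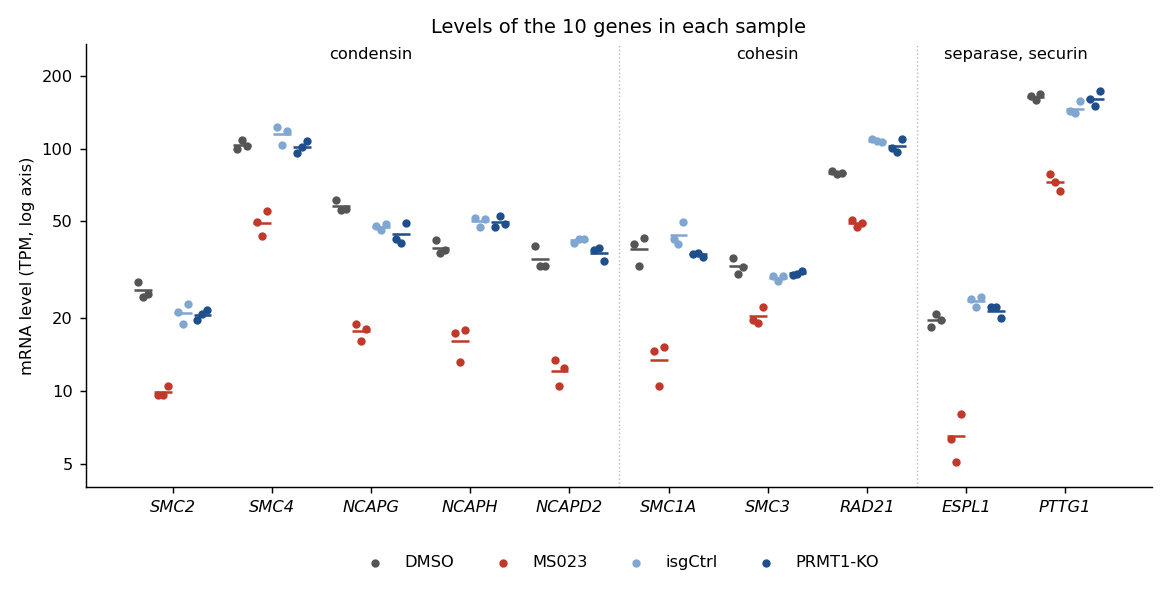
Level of each of the 10 genes in every sample, in TPM on a log axis, with 1 point per sample and a bar at the mean of the 3 replicates of each of the 4 groups. All MS023 points lie below all points of the other groups, and the PRMT1-KO points lie near or among the isgCtrl points.

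The 5 condensin genes fell to between 30.6% and 47.8% of their DMSO level. SMC2, an ATPase arm shared by condensin I and II, was 28.3, 24.5 and 25.1 TPM in the DMSO samples and 9.60, 9.65 and 10.5 TPM with MS023. Every MS023 sample was below every DMSO sample, and the log2 fold change was -1.30 ± 0.08 (SE, n = 3 each, limma adjusted p = 0.000139). Its partner arm SMC4 was 99.8, 109 and 102 TPM with DMSO and 49.7, 43.4 and 55.2 TPM with MS023. Again no samples overlapped, and the mean fell to 47.8% of DMSO, the largest share kept among the condensin genes (log2 fold change -1.06 ± 0.10 SE, limma adjusted p = 0.000573).

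NCAPG, a HEAT-repeat subunit found in condensin I only, fell more than any other member. The DMSO samples held 61.2, 55.95 and 56.1 TPM and the MS023 samples 18.95, 16.05 and 18.05 TPM. The lowest DMSO sample was thus far above the highest MS023 sample, and the log2 fold change was -1.66 ± 0.08 (SE, limma adjusted p = 8.95e-05), which ranked 97 from the low end among 12903 genes. NCAPD2, the other HEAT-repeat subunit of condensin I, went from 39.6, 32.8 and 32.9 TPM to 13.5, 10.5 and 12.4 TPM. Its groups did not overlap, with a log2 fold change of -1.46 ± 0.12 (SE, limma adjusted p = 0.000344). NCAPH, the kleisin that closes the condensin I ring, was 41.8, 37.01 and 38.3 TPM with DMSO and 17.3, 13.2 and 17.8 TPM with MS023, again without overlap (log2 fold change -1.24 ± 0.13 SE, limma adjusted p = 0.000723).

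Among the cohesin genes the fall was uneven. SMC1A, an ATPase arm of mitotic cohesin, was 40.4, 32.7 and 42.7 TPM in DMSO and 14.6, 10.5 and 15.2 TPM in MS023, 34.8% of the control. All 3 MS023 samples lay below the DMSO samples, and the log2 fold change of -1.46 ± 0.17 (SE, limma adjusted p = 0.00105) was as large as that of NCAPD2. SMC3, the other arm, fell least of the 10 genes. It was 35.5, 30.3 and 32.3 TPM in DMSO and 19.7, 18.96 and 22.3 TPM in MS023, 62.1% of the control. The groups stayed apart, at a log2 fold change of -0.66 ± 0.09 (SE, limma adjusted p = 0.00231). RAD21, the kleisin that separase cuts, was 80.9, 78.6 and 79.3 TPM in DMSO and 50.9, 47.5 and 49.5 TPM in MS023. It kept 62.0% of the control with little spread between replicates (log2 fold change -0.68 ± 0.06 SE, limma adjusted p = 0.000448).

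Separase and its inhibitor both fell. ESPL1, the protease itself, had the lowest mRNA level of the 10, at 18.3, 20.7 and 19.5 TPM in DMSO and 6.35, 5.10 and 8.04 TPM in MS023. The groups were apart, and the mean fell to 33.3% (log2 fold change -1.47 ± 0.15 SE, limma adjusted p = 0.000707). PTTG1, securin, had the highest level and was 164, 159 and 168 TPM in DMSO and 78.2, 72.7 and 66.99 TPM in MS023. Here too no samples overlapped, and 44.4% of the control remained (log2 fold change -1.16 ± 0.08 SE, limma adjusted p = 0.00018). PTTG1 has near-identical copies, PTTG2 and PTTG3P, which were listed at 0 in every sample but 1 for PTTG2, so the division of reads among them is uncertain. Over the 10 genes, the 95% intervals of the log2 fold changes ran from -1.87 to -0.43. Taken singly, each gene gave p = 0.1 in the exact permutation test (two-sided, 3 against 3), the smallest value possible in this design. Median-ratio scaling moved the split of all called genes from 1500 higher and 2486 lower to 1905 higher and 1964 lower, and all 10 members stayed called lower with it.

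**Figure D2:**
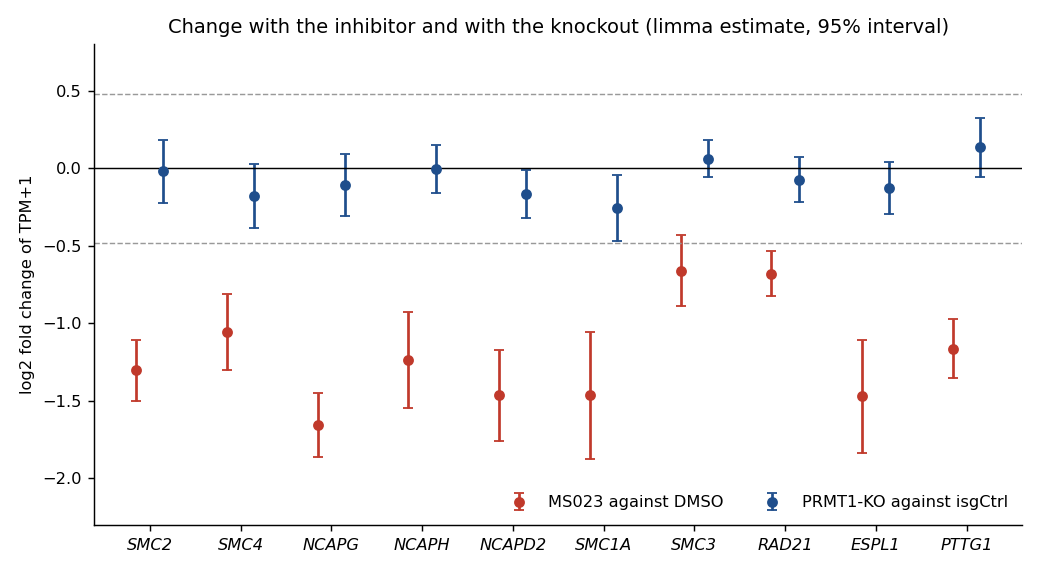
Change of each of the 10 genes with MS023 (against DMSO) and with the PRMT1 knockout (against isgCtrl), as the log2 fold change of TPM+1 estimated by limma, with 95% intervals. The MS023 estimates run from -1.66 for NCAPG to -0.66 for SMC3 and all intervals lie below 0, whereas the knockout estimates run from -0.26 for SMC1A to 0.13 for PTTG1.

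The second comparison asked the same of the PRMT1 guide, against cells with the control guide. PRMT1 mRNA remained at 35.4% of the control. Protein is not in these data, and the paper reports efficient deletion by western blot. None of the 10 genes was called, where 0.781% of the 12285 genes tested were called. The PRMT1-KO levels were 82.9% to 109.8% of the control, with a median of 93.9%, and the median log2 fold change was -0.09 for the members and -0.04 over all genes. At an unadjusted p under 0.05, limma gave 2 of 10 (18.6% of all genes), and 3 of 10 had groups that did not overlap (26.7% of all genes). The 95% intervals of the 10 log2 fold changes lay between -0.47 and 0.32, so that each of the falls seen with MS023, the smallest being -0.66, was outside the interval of the same gene in the knockout. Missing the threshold does not show that the knockout left these genes alone, and the size of any change is bounded by these intervals only.

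SMC1A had the largest estimate. It was 42.3, 40.2 and 49.8 TPM in isgCtrl and 36.8, 37.1 and 35.8 TPM in PRMT1-KO. All 3 knockout samples were below the controls, but the log2 fold change of -0.26 ± 0.09 (SE, 95% interval -0.47 to -0.04) did not pass (limma adjusted p = 0.21). NCAPD2 showed the same pattern, with 40.7, 42.1 and 42.4 TPM in isgCtrl and 38.03, 38.8 and 34.5 TPM in PRMT1-KO. Its groups were also apart, and its log2 fold change was -0.17 ± 0.06 (SE, limma adjusted p = 0.239).

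In contrast to its partner, SMC3 was slightly higher in each knockout sample, at 29.7, 28.5 and 29.7 TPM in isgCtrl and 30.2, 30.3 and 31.3 TPM in PRMT1-KO. The difference was small (log2 fold change 0.06 ± 0.05 SE, limma adjusted p = 0.535), within an interval of -0.06 to 0.18. RAD21 was 109, 107 and 107 TPM in isgCtrl and 101, 97.1 and 109 TPM in PRMT1-KO, and the highest knockout sample was level with the highest control, so that the groups overlapped (log2 fold change -0.07, limma adjusted p = 0.547).

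In the other condensin genes the groups overlapped. SMC4 was 115 ± 9.89 TPM in isgCtrl and 101 ± 6.02 TPM in PRMT1-KO (SD, n = 3 each, limma adjusted p = 0.319), and NCAPG 47.6 ± 1.49 against 44.2 ± 4.49 TPM (limma adjusted p = 0.517). SMC2 was 20.97 ± 2.02 against 20.6 ± 0.92 TPM and NCAPH 50.03 ± 2.30 against 49.8 ± 2.69 TPM, with log2 fold changes of -0.02 and -0.01 whose sign changed with the scaling of the samples. ESPL1 was 23.8, 22.2 and 24.5 TPM in isgCtrl and 22.1, 22.2 and 19.95 TPM in PRMT1-KO, with overlap and a log2 fold change of -0.13 (limma adjusted p = 0.361). PTTG1 stood on the other side of 0, at 142, 139.5 and 156 TPM in isgCtrl and 159, 149 and 173 TPM in PRMT1-KO. A knockout sample lay below the highest control, and the log2 fold change was 0.13 (limma adjusted p = 0.404). The summed markers gave 520 to 536 TPM for G2/M and 2028 to 2077 TPM for S phase in PRMT1-KO, against 533 to 539 and 2067 to 2143 TPM in isgCtrl. By flow cytometry, the paper reports fewer S phase cells and more sub-G0 cells after PRMT1 knockout in myeloma lines that include JJN3. It also reports fewer S phase cells with MS023. Those are shares of cells by DNA content, a measure unlike summed mRNA.

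Whether the inhibitor and the knockout acted differently on a gene was tested as the difference of both effects in a fit of all 12 samples. It was below 0 at a limma adjusted p under 0.05 for 10 of 10 genes, where 35.6% of 13256 genes passed and 21.2% passed below 0. The difference ran from -1.55 (95% interval -1.81 to -1.28, limma adjusted p = 8.94e-06) for NCAPG to -0.61 (95% interval -0.78 to -0.44, limma adjusted p = 0.000222) for RAD21. The controls of the 2 effects differ in Cas9, the vectors and doxycycline, and the contribution of these to the difference cannot be told apart.

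The control cells themselves differed. Between isgCtrl and DMSO none of the 10 genes was called (13.9% of 12661 genes were). However, 7 of 10 had an unadjusted p under 0.05 (46.9% of all genes), and 8 of 10 did not overlap (51.7% of all genes). A limma adjusted p under 0.05 was reached by 4 of 10, all with a fold change below the threshold. Over all genes, 4373 of 12661 had such an adjusted p at any fold change. RAD21 was higher in all 3 isgCtrl samples, with 108 ± 1.27 against 79.6 ± 1.17 TPM in DMSO (SD, n = 3 each, log2 fold change 0.43, limma adjusted p = 0.00247). NCAPH and ESPL1 were higher as well, with log2 fold changes of 0.35 (limma adjusted p = 0.0136) and 0.26 (limma adjusted p = 0.036). NCAPG was lower, at -0.27 (limma adjusted p = 0.02). Over the 4 groups, MS023 held the lowest level of each gene, and its range was apart from the next group in 10 of 10. Of the 20 other neighbouring pairs in the order of levels, 14 overlapped in their ranges and 6 did not. The shares of all genes with such orders over the 4 groups were not counted. Against DMSO alone, 36.3% of 12903 genes were lower with MS023 without overlap. The isgCtrl samples took the top place for SMC4, NCAPH, NCAPD2, SMC1A, RAD21 and ESPL1, and the DMSO samples for SMC2, NCAPG, SMC3 and PTTG1.

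Partners within a complex act together, and ratios of TPM within a sample do not depend on how samples were scaled against each other. They are given as descriptions, with no test. Besides the ratios that follow, those of NCAPG, NCAPH and NCAPD2 to SMC2 and of RAD21 to SMC1A were computed. In each of these the isgCtrl and PRMT1-KO samples overlapped. DMSO and MS023 overlapped for NCAPH and NCAPD2. Without overlap, NCAPG to SMC2 was lower with MS023 and RAD21 to SMC1A was higher. SMC1A to SMC3 stood at 1.08 to 1.32 in DMSO and 0.552 to 0.744 in MS023. For the control guide it ranged over 1.41 to 1.68, and with the PRMT1 guide over 1.14 to 1.22. It was thus lower in both treated groups than in their own controls, without overlap. However, the PRMT1-KO values lay within the DMSO range, and isgCtrl was itself above DMSO without overlap. The share of all gene pairs with such shifts was not counted. RAD21 to SMC3 had the same mean of 2.44 in DMSO and MS023, and the samples of these groups overlapped, unlike in the ratio of SMC1A to SMC3. Its mean was 3.68 in isgCtrl and 3.34 in PRMT1-KO, lower in the knockout without overlap.

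Summed condensin mRNA was lower relative to summed cohesin mRNA with MS023. RAD21 made up 79.6 of the 151 TPM of the cohesin sum in DMSO. SMC1A kept 34.8% of its DMSO level, within the 30.6% to 47.8% of the condensin genes. The ratio of summed condensin to summed cohesin TPM was 1.65 to 1.83 in DMSO and 1.21 to 1.31 in MS023, and the groups were apart. In isgCtrl and PRMT1-KO it was 1.52 and 1.49 on average, with overlap. The isgCtrl values, at 1.47 to 1.57, were themselves below those of DMSO without overlap. SMC4 to SMC2 had a mean of 4.01 in DMSO and 4.98 in MS023, without overlap, and was 5.49 in isgCtrl and 4.91 in PRMT1-KO, also without overlap. PTTG1 to ESPL1, securin over separase, was 7.67 to 8.96 in DMSO and 8.33 to 14.3 in MS023, with overlap. With the control guide it was 5.98 to 6.39, below the 6.72 to 8.65 of the knockout samples. For these mRNAs the order from PTTG1 over SMC4 and RAD21 down to ESPL1 in DMSO changed with MS023 mainly in SMC3, which moved from rank 8 to rank 4.

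**Figure D3:**
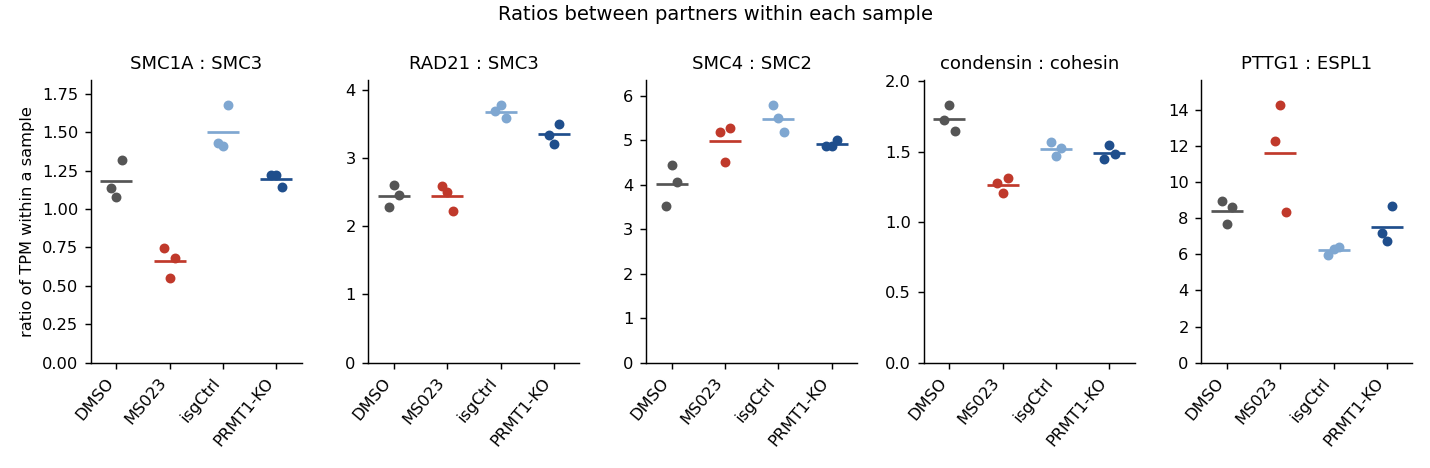
Ratios of TPM between partners within each sample, with 1 point per sample, a bar at the group mean and the 4 groups on the horizontal axis. SMC1A to SMC3 is lowest with MS023 at 0.552 to 0.744, and RAD21 to SMC3 has overlapping points in DMSO and MS023.

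The wider machinery was taken from lists of condensin II, the remaining cohesin subunits, cohesin regulators, the SMC5/6 complex, the anaphase-promoting complex, the cyclin B kinase and other proteins of mitotic chromosomes, with 54 genes besides the members. Of the 50 tested with MS023, 25 were called lower (19.3% of all genes were), 0 higher (11.6%) and 25 not called, with a median log2 fold change of -0.48. In PRMT1-KO 0 of 49 were called by limma (0.781% of all genes were) and 6 had an unadjusted p under 0.05, a smaller share than the 18.6% of all genes, with a median of -0.04. Only 1 of the 49 had an adjusted p under 0.05. Between isgCtrl and DMSO 2 of 50 were called (13.9% of all genes were), ESCO2 with a log2 fold change of -1.06 (limma adjusted p = 0.00259) and CDK1 with -0.53 (limma adjusted p = 0.00277), both lower in isgCtrl. The gene under 0.05 in the knockout was ANAPC1, a scaffold subunit of the anaphase-promoting complex, with 27.3 ± 1.82 TPM in isgCtrl and 19.5 ± 0.889 TPM in PRMT1-KO (log2 fold change -0.46, limma adjusted p = 0.0482). Its fold change was below the threshold for a call, its adjusted p ranged from 0.0163 to 0.168 under other settings, and its isgCtrl level was itself above DMSO (log2 fold change 0.32, limma adjusted p = 0.0367). With MS023 ANAPC1 was called lower, at a log2 fold change of -0.75 (limma adjusted p = 0.00632).

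Condensin II, the complex that holds its own HEAT and kleisin subunits, had 2 of 3 called lower with MS023, where 19.3% of all genes were. NCAPD3, its counterpart of NCAPD2, fell from 41.3 ± 1.82 to 13.9 ± 1.70 TPM (log2 fold change -1.51, limma adjusted p = 0.000165) and NCAPG2, that of NCAPG, from 53.8 ± 5.62 to 26.1 ± 0.518 TPM (log2 fold change -1.01, limma adjusted p = 0.00045). The kleisin NCAPH2 was at 60.5 ± 3.62 TPM in DMSO and 48.5 ± 2.74 TPM in MS023, not called, with a log2 fold change of -0.31 (limma adjusted p = 0.0179). The ratio of NCAPG to NCAPG2 went from 1.08 to 0.678 and that of NCAPH to NCAPH2 from 0.646 to 0.334, while NCAPD2 to NCAPD3 was 0.851 and 0.874. DMSO and MS023 samples did not overlap in the first 2 of these ratios and overlapped in the last.

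Cohesin's other parts were split. STAG1 and STAG2, the subunits that dock RAD21 on DNA, fell (log2 fold changes -0.76 and -0.61, limma adjusted p = 0.0018 and 0.00376). Meiotic subunits were low: STAG3, SMC1B and RAD21L1 did not reach the level for testing, and REC8 was at 1.49 ± 1.34 TPM in DMSO. PDS5B and PDS5A, which bind the ring and help to release or keep it, fell with log2 fold changes of -1.31 and -0.60 (limma adjusted p = 0.0019 and 0.00494). The loader NIPBL (-0.21), its partner MAU2 (-0.04), the release factor WAPL (-0.09) and the anchor CTCF (-0.21) were not called. The acetylation and protection list had 5 of 6 called lower (19.3% of all genes). SGO2 and SGO1, which shield centromeric cohesin, had log2 fold changes of -1.40 and -1.23, and the acetyltransferase ESCO2 -0.84 (limma adjusted p = 0.000112, 0.00031 and 0.0178). The ESCO2 call was lost when DMSO replicate 1 or 2 or MS023 replicate 1 or 2 was left out (limma adjusted p up to 0.0589), and its level was 2.60 ± 0.422 TPM in isgCtrl and 3.29 ± 1.24 TPM with MS023, against 6.49 ± 0.81 TPM in DMSO (SD, n = 3). SGO1 and SGO2, like the chromokinesin KIF4A, are named in the study from these samples, so their direction is not independent evidence.

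Of the anaphase-promoting complex and its activators, which trigger the destruction of securin, 6 of 18 were called lower (19.3% of all genes). The activator CDC20 fell from 160.3 ± 2.27 to 51.9 ± 0.868 TPM (log2 fold change -1.61, limma adjusted p = 5.52e-05) and the ubiquitin-conjugating enzyme UBE2C from 271 ± 5.14 to 96.5 ± 9.36 TPM (log2 fold change -1.48, limma adjusted p = 0.000121). Cyclin B and its kinase, which phosphorylate condensin and hold back separase, were called lower in 3 of 3, against the same 19.3%. CCNB2, CCNB1 and CDK1 had log2 fold changes of -1.70, -1.63 and -1.46 (limma adjusted p = 8.27e-05, 6.16e-05 and 6.8e-05). Of the other mitotic chromosome proteins 3 of 5 were called lower (19.3% of all genes), namely TOP2A, the topoisomerase that untangles sisters (-1.60), KIF4A (-1.38) and MKI67, which coats mitotic chromosomes (-0.97). In the SMC5/6 complex, another SMC ring used in repair, 2 of 6 were called lower (19.3% of all genes). These were SMC6 (-1.24, limma adjusted p = 0.000142) and NSMCE4A (-0.76, limma adjusted p = 0.000271), while SMC5 was at -0.37 (limma adjusted p = 0.0573).

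The genes whose levels most resembled those of the members over the 12 samples were found among 13256 genes by Pearson's r. The mean of the 5 condensin genes was most like BUB1 (r of 0.997), a spindle checkpoint kinase, then CIP2A, SBDSP1, RFC3 and PNRC2, with r of 0.995 or more. The cohesin genes were most like SF3A3 (0.998), and CLSPN, GSPT1 and BUB1 were also close. ESPL1 went with NCAPD3 (0.995), IL17RB, TICRR and KIF18B, and PTTG1 with HSPA4L (0.992), PTGES3, CDKN3, HMGB1P5 and CLGN. SBDSP1 and HMGB1P5 are pseudogenes that could share reads with their parent genes. Among the members themselves, r was 0.796 to 0.988 over the 45 pairs, with a median of 0.941. All these values are descriptions, since the 12 points share the same division into 4 groups and MS023 stands apart from the others in every member.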

How the data were processed

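RNA of 12 JJN3 samples was sequenced. By the paper's methods and the submitters' processing notes, reads were checked with FastQC, trimmed with Trimmomatic, aligned to hg38 with STAR in two-pass mode and quantified with Salmon (k-mer 31) on GENCODE V35 transcripts. The versions of these tools are not given in the sources used here. The authors deposited gene-level log2(TPM+1), which was used as it stands. TPM is the deposited value with the log2 and the 1 removed. TPM sums to the same total in each sample, so read depth and counting error are unknown and no count model was used.

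The members and gene lists were chosen with earlier results of these data known. Groups came from the labels. A gene was tested where either group averaged above 1 in log2(TPM+1), with limma 3.58.1 in R 4.3.3 (eBayes without trend, only the 6 samples of a comparison) with Benjamini-Hochberg adjustment over all genes tested. Calls needed p under 0.05 after adjustment and a log2 fold change beyond 0.48 in either direction, the study's thresholds. With MS023 3986 genes were called, many more than the paper reported. In the knockout 96 were called, close to the paper's count. The reason for the gap with MS023 was not tested. The difference between the effects of MS023 and of the knockout was a contrast in all 12 samples, called on the adjusted p alone. Fold changes are differences of log2(TPM+1), which understates changes of low genes. Errors are the SD or SE of 3 replicates as marked.

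Genes named are the 10 members, PRMT1, the 3 genes of each wider list with the largest absolute log2 fold change among those called with MS023, list genes called in the knockout, and the 5 genes most correlated with condensin, cohesin, ESPL1 and PTTG1. A gene that this rule names is not reported here. NCAPH2, REC8, STAG3, SMC1B, RAD21L1, NIPBL, MAU2, WAPL, CTCF, SMC5, ANAPC1 in the knockout and the antisense partners were named after their values were seen, as were MZB1, SLAMF7, CD38, IRF4 and the PTTG1 copies. The code was tested on simulated data: of 200 genes planted at a log2 fold change of 1, 80% were recovered for MS023 (14 false calls, 12605 genes) and 88% for the knockout (6 false calls, 12236 genes). The planted genes were drawn from the better expressed ones, and no other gene differed, unlike in the data. Recovery of smaller changes was not tested. Alternatives were no filter, quantile normalization, the replicate number as a block, a filter in every sample, eBayes with trend, median-ratio scaling, a pseudocount of 0.1, all 12 samples in a fit, no fold threshold, a fold threshold of 1 and each replicate left out.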

Additional observations from a re-analysis of the deposited data

Results flagged for a closer look

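For all 10 genes the effect of MS023 differed from the effect of the PRMT1 knockout by a test of the difference itself (limma on 12 samples, Benjamini-Hochberg adjusted p between 8.94e-06 and 0.00118). In condensin the difference of log2 fold changes, MS023 minus PRMT1-KO, was -1.28 for SMC2, -0.88 for SMC4, -1.55 for NCAPG, -1.23 for NCAPH and -1.30 for NCAPD2. In cohesin it was -1.21 for SMC1A, -0.72 for SMC3 and -0.61 for RAD21. For ESPL1 it was -1.34 and for PTTG1 -1.30. Over the 13256 genes tested the median difference was -0.07, and 35.6% passed.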

How the results depend on the processing

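The alternatives came to 16 for each pair of groups and 19 for the difference of effects. The members kept their direction and call with MS023 in 158 of 160 values and in the difference of effects in 190 of 190, and the other 2 were SMC3 and RAD21 under the fold threshold of 1, which left 8 of 10 called. In PRMT1-KO 0 members were called under any alternative, and the sign of a near-zero estimate changed in 10 of 160. SMC2 went to 0.017 with median-ratio scaling and 0.027 with quantile normalization, and to between -0.0923 and 0.0407 with a replicate left out, and NCAPH to 0.033 and 0.031, and to between -0.048 and 0.0252. PRMT1 with MS023 was -0.0298 with quantile normalization. Between isgCtrl and DMSO, 4 members were called without a fold threshold, where 4373 of 12661 genes were. Whether replicate numbers pair the samples could not be decided. The mean correlation of deviations for same numbers was 0.065 with MS023 and -0.047 in the knockout. For different numbers it was -0.033 and 0.024. Deviations were taken from the group means, which ties the averages of same and different numbers together. With the replicate block 10 members were called with MS023 and 0 in the knockout, where limma called 0 of 12285 genes (2054 at an unadjusted p under 0.05) and PRMT1 had an adjusted p of 0.149. The knockout calls over all genes ranged with the setting, from 96 to 48 without the filter, 157 without a fold threshold, 9 at a fold threshold of 1 and 2 to 18 with a replicate left out (2 without isgCtrl replicate 2). With median-ratio scaling they split into 65 higher and 30 lower (51 and 45 before), those of isgCtrl against DMSO into 678 and 948 (915 and 848), and the difference of effects into 2390 and 2343 (1903 and 2816). ESCO2 with MS023 lost its call without the filter and without DMSO replicate 1, DMSO replicate 2, MS023 replicate 1 or MS023 replicate 2 (adjusted p up to 0.0589), and PDS5A with quantile normalization (log2 fold change -0.45). At a fold threshold of 1, ESCO2, PDS5A, STAG1, STAG2, ANAPC1, MKI67 and NSMCE4A were not called with MS023. ANAPC1 in the knockout was called without a fold threshold. The cause of these changes was not tested beyond the fewer samples and moved thresholds themselves.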
